A study of Mus musculus with 10 samples.

Results

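Cubn, Amn, Tcn2, Slc46a1, Slc19a1, Slc19a3 and Slc23a1 are 7 genes through which the intestine takes up cobalamin, folate, thiamine and ascorbate or passes them on. They were taken by symbol from the 36401 genes in the deposited count tables, and each symbol had 1 gene identifier. Of the 7, 6 passed the filter on low counts that left 15678 genes for testing, and Slc19a3 did not. Male C57Bl6 mice gave the terminal ileum tissue, and had been made obese on a high-fat diet (60 kcal% fat, given for 6 weeks ahead of surgery), and the labels put their age at surgery at 8 weeks. The labels do not say how these times fit together. In the VSG group (5 libraries) mice had a vertical sleeve gastrectomy, an operation that leaves a narrow tube of stomach, and then ate freely. In the SPF group (5 libraries) mice had sham surgery and were pair-fed, receiving the amount eaten in the VSG group. The mice of both groups had liquid Osmolite for 4 days around surgery. About 8 weeks later they were fasted overnight, gavaged with 0.5 mL Osmolite and sampled 1 hour afterwards. No allele, transgene or drug is named for either group, and free feeding goes with the sleeve operation, so surgery and feeding regime cannot be told apart. No animal numbers are given, so p-values measure the spread between these libraries.

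In the distal small intestine, cobalamin arrives bound to intrinsic factor and is taken up by a receptor made of cubilin (Cubn) and amnionless (Amn). Cubilin binds the ligand, and amnionless anchors it in the membrane and brings it to the cell surface. Transcobalamin (Tcn2) carries cobalamin in the blood to other tissues. Dietary folate enters mainly in the upper small intestine through the proton-coupled folate transporter Slc46a1, while the reduced folate carrier Slc19a1 is found in most tissues. Slc19a3 transports thiamine across the apical membrane, and Slc23a1 is a sodium-dependent ascorbate transporter of epithelia. Gata4 encodes a transcription factor of upper small intestinal epithelium that is normally absent from the most distal ileum.

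Total estimated counts ran from 15364651 to 34058181 per library. Gata4, as normalised CPM (read counts scaled to a common library size with TMM factors), was at 1.72, 121, 6.28, 5.63 and 5.00 in VSG libraries 1 to 5, against 1.95, 109, 2.76, 183 and 3.04 in SPF libraries 1 to 5. VSG 2, SPF 2 and SPF 4 were thus apart from the other 7, across both groups and against the label of terminal ileum. The 8 upper small intestine markers summed to between 2803 and 3235 CPM in these 3 libraries, against 65.8 to 149.7 in the other 7. Lct and Adh6a made up most of that sum in the 3. Of the 8, Slc40a1 was lower in the 3 libraries, at 3.68 to 13.6 CPM, against 35.8 to 98.3 CPM in the 7, and Cybrd1 overlapped, at 5.01 to 5.75 CPM in the 3 and 3.58 to 7.05 CPM in the 7. The 6 ileal bile acid uptake markers summed to between 402 and 587 CPM in the 3, against 4324 to 9321 in the 7. Within the 3, SPF 4 stood apart again, with Pdx1 at 14.5 CPM, against 0 to 0.354 in the other 9. Onecut2 was at 137 CPM in SPF 4, against 10.6 in VSG 2 and 2.91 in SPF 2. Epithelial markers (9 genes) summed to 14538 to 19086 CPM in VSG and 11285 to 22830 in SPF, and smooth muscle markers (6 genes) to 637 to 1377 in VSG and 256 to 3497 in SPF. No marker in any list was at 0 in every library. Extraction or sequencing batches are not given in the labels. In bulk tissue, fewer cells of a type and less RNA per cell cannot be told apart.

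The promoters of the cubilin receptor's subunits and of the folate and thiamine transporters with the widest spread are printed here, because cubilin and amnionless act as a pair and the transporters were highest in the libraries with high Gata4. Windows of 250 bases before the start site, taken from RefSeq (GRCm38.p6), were used for 5 of the 7 genes. No window of Tcn2 or Slc23a1 was searched, so nothing is said of their promoters. Both strands were searched for 3 motifs. GATA factors bind GATAA, whose reverse complement is TTATC. Caudal-type factors bind TTTAT, whose reverse complement is ATAAA. Nuclear receptors bind AGGTCA, whose reverse complement is TGACCT. The first and second motif can share letters, since GATAA followed by another A also holds the reverse complement of TTTAT. Capitals mark a match. The Cubn window lies at chr2:13491877-13492126 on the minus strand, and the Amn window at chr12:111270846-111271095 on the plus strand. The Slc46a1 window lies at chr11:78465451-78465700 on the plus strand, and the Slc19a3 window at chr1:83038449-83038698 on the minus strand.
Cubn promoter: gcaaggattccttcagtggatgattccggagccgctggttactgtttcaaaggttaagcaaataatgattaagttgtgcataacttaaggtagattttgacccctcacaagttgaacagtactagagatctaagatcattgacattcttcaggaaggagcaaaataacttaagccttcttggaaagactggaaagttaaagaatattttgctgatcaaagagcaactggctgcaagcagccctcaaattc
Amn promoter: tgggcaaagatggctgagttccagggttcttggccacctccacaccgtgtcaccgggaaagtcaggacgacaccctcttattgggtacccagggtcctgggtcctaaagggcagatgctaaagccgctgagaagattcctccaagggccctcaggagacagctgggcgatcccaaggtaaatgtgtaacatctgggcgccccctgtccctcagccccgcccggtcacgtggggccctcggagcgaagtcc
Slc46a1 promoter: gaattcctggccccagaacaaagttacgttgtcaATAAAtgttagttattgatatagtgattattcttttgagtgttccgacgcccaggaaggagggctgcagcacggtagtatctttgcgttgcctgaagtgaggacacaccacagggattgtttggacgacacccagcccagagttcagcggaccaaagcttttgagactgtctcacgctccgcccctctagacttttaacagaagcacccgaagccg
Slc19a3 promoter: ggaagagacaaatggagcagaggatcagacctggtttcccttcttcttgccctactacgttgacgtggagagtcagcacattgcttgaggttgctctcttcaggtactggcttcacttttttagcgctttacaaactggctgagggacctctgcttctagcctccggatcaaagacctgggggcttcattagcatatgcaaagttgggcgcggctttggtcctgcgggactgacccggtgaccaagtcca
None of these 4 windows holds GATAA or AGGTCA. The Slc46a1 window holds 1 TTTAT match, in reverse orientation, 216 bases before the start site. Over 32851 mouse promoter windows of the same length, 22.6% hold GATAA, 37.3% TTTAT and 14.0% AGGTCA in either orientation. A match is a run of letters only, and no match describes this window alone.

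Cubn, the ligand-binding subunit, had the most reads of the 7 genes in 8 of the 10 libraries and a far lower value in SPF 4. It was at 1073, 511, 1129.9, 1761 and 1544 CPM in VSG libraries 1 to 5, against 1250.4, 1119, 782, 94.5 and 682 CPM in SPF libraries 1 to 5. VSG 4 and VSG 5 were above every SPF library, VSG 2 was the lowest VSG library, and the groups overlapped. Cubn averaged 1204 ± 482 CPM in VSG and 785 ± 452 CPM in SPF (SD, n = 5 each). The epithelial markers summed to 11649 CPM in SPF 4 and 11285 CPM in SPF 5, the lowest of the 10. Their sum was highest in SPF 3, at 22830 CPM, where Cubn was at 782 CPM. Markers of kidney tubule, a tissue also known for Cubn, summed to 3.27 CPM in VSG 4 and 11.7 CPM in VSG 5. Elsewhere that sum was at most 1.54 CPM. The part of either marker set in the Cubn levels was not tested. The antisense gene Gm13270, which touches a Cubn exon, was at 0 to 0.200 CPM across the libraries.

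Amn, the membrane anchor, varied less than its partner. It was at 206, 183, 179.5, 247 and 259.6 CPM in VSG libraries 1 to 5, against 161, 249, 328, 100.2 and 138 CPM in SPF libraries 1 to 5. SPF 3 was the highest and SPF 4 the lowest of the 10, so the VSG range lay inside the SPF range. The means were 215 ± 36.9 CPM in VSG and 195 ± 92.2 CPM in SPF (SD, n = 5 each). The number of Cubn reads per Amn read was 5.21, 2.80, 6.29, 7.12 and 5.95 in VSG libraries 1 to 5, against 7.76, 4.50, 2.38, 0.943 and 4.94 in SPF libraries 1 to 5. In SPF 4 the longer Cubn transcript thus had fewer reads than Amn.

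Tcn2, the blood carrier of cobalamin, had the narrowest spread of the 7 genes, with the highest library 2.13 times the lowest. It was at 595, 469, 475, 675 and 688 CPM in VSG libraries 1 to 5, against 514, 470.1, 816, 383 and 405 CPM in SPF libraries 1 to 5. SPF 3 was again the highest and SPF 4 the lowest, and the groups overlapped. The means were 580.3 ± 105 CPM in VSG and 518 ± 175 CPM in SPF (SD, n = 5 each). Vascular endothelium, a known source of Tcn2, had summed markers (5 genes) at 58.2 to 112 CPM in VSG and 40.2 to 103 CPM in SPF. Their part in the Tcn2 levels was not tested.

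Slc46a1, the folate transporter of the upper small intestine, was highest in the 3 libraries with high Gata4. It was at 25.9, 82.3, 13.0, 19.2 and 27.0 CPM in VSG libraries 1 to 5, against 12.8, 63.0, 26.7, 313 and 11.0 CPM in SPF libraries 1 to 5. SPF 4 alone held 313 CPM, and without VSG 2, SPF 2 and SPF 4 both groups lay between 11.0 and 27.0 CPM. The means were 33.5 ± 27.9 CPM in VSG and 85.3 ± 129 CPM in SPF (SD, n = 5 each). The reduced folate carrier Slc19a1 was at 19.8, 19.1, 17.0, 11.4 and 13.9 CPM in VSG libraries 1 to 5, against 18.5, 11.1, 17.2, 40.6 and 17.6 CPM in SPF libraries 1 to 5. Apart from SPF 4, its 9 libraries lay between 11.1 and 19.8 CPM. The means were 16.2 ± 3.52 CPM in VSG and 21.0 ± 11.3 CPM in SPF (SD, n = 5 each). Col18a1, a collagen gene on the opposite strand that touches a Slc19a1 exon, was also highest in SPF 4, at 66.4 CPM, against 28.0 to 62.6 CPM in the other 9. Its part in the Slc19a1 value was not tested, since strand use in counting is not stated.

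The thiamine transporter Slc19a3 was near the limit of detection in most libraries. It had 3, 31, 9, 5 and 7 estimated counts in VSG libraries 1 to 5, against 2, 36, 2, 211 and 8 in SPF libraries 1 to 5. Its levels were 0.117, 1.20, 0.608, 0.168 and 0.280 CPM in VSG, against 0.0650, 1.16, 0.0788, 11.8 and 0.208 CPM in SPF, in the same order. SPF 4 was again the highest, and VSG 2 and SPF 2 came next. The ascorbate transporter Slc23a1 was at 4.65, 141, 9.32, 7.68 and 7.40 CPM in VSG libraries 1 to 5, against 4.26, 153, 4.37, 32.8 and 4.21 CPM in SPF libraries 1 to 5. VSG 2 and SPF 2 were far above all others, SPF 4 came next, and the groups overlapped. Its means were 33.9 ± 59.7 CPM in VSG and 39.8 ± 64.6 CPM in SPF (SD, n = 5 each). Paip2, which overlaps Slc23a1 on the opposite strand, lay between 36.5 and 56.0 CPM across the libraries and was lowest in VSG 2.

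**Figure D1:**
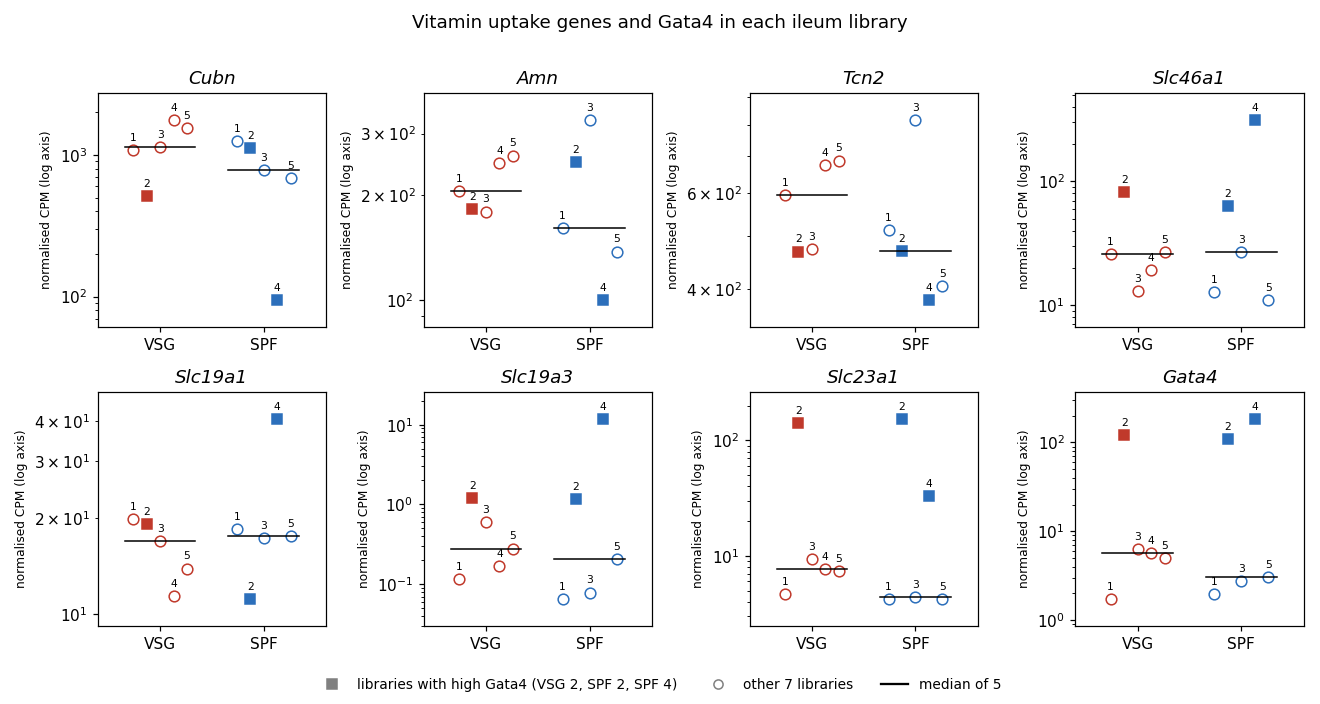
Normalised CPM (log axes) of the 7 uptake genes and Gata4 in each library, VSG left and SPF right, with library numbers beside the points and a line at the median of 5. Filled squares are VSG 2, SPF 2 and SPF 4; for Slc46a1, Slc19a3 and Slc23a1 they lie above all 7 open circles, while Cubn in SPF 4 lies lowest, at 94.5 CPM.

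Levels of different genes were compared as CPM per kilobase of merged exons (GENCODE models). Tcn2 had the highest level in all 10 libraries, with a median of 227 CPM per kilobase and a range of 176 to 374. Amn followed with a median of 105 (54.4 to 178) CPM per kilobase and Cubn with 73.4 (6.33 to 118). The ranges of Amn and Cubn overlapped, and Cubn, whose exons span 14935 bp, took rank 3 to 6 by library. Slc46a1 had a median of 8.53 CPM per kilobase but reached 102 in SPF 4, above Amn there. Slc19a1 (median 3.75, range 2.40 to 8.75) and Slc23a1 (median 2.33, range 1.30 to 47.3) overlapped each other and Slc46a1. Slc19a3 was the lowest in all 10 libraries, with a median of 0.0796 and at most 3.84 CPM per kilobase.

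VSG was compared with SPF to ask how ileal expression differs after the operation. No uptake gene changed beyond the spread between libraries. At an adjusted p under 0.05 (edgeR quasi-likelihood test, Benjamini-Hochberg over 15678 genes) 0 of the 6 tested genes were called, and 0 at an unadjusted p under 0.05. The share called over all genes was 0%, with 595 genes (3.8%) at an unadjusted p under 0.05. DESeq2 called 11 genes and limma-voom 0, with 0 uptake genes in either. Cubn had a log2 fold change, VSG over SPF, of 0.62 ± 0.55 (SE; 95% interval -0.58 to 1.82; edgeR adjusted p = 0.977), and 0.35 without SPF 4. Amn had 0.14 (-0.50 to 0.78; edgeR adjusted p = 0.985) and Tcn2 0.17 (-0.34 to 0.67; edgeR adjusted p = 0.977). Slc46a1 had -1.34 ± 0.90 (SE; interval -3.33 to 0.64; edgeR adjusted p = 0.977), a value set by SPF 4: without that library it was 0.26, and without VSG 2 it was -2.00. Slc19a1 had -0.37 (-1.05 to 0.31; edgeR adjusted p = 0.977) and was 0.017 without SPF 4. Slc23a1 had -0.23 with an interval from -2.97 to 2.52 (edgeR adjusted p = 0.993). It was -2.46 without VSG 2 and 1.58 without SPF 2. Slc19a3, below the filter with all 10 libraries, had, in a fit without the filter, -2.44 (-5.17 to 0.28; edgeR adjusted p = 0.819). SPF 4 held 11.8 CPM of it, and its medians were 0.280 CPM in VSG and 0.208 CPM in SPF. Gata4 itself had -1.10 with an interval of -4.29 to 2.09, and VSG held 1 of the high-Gata4 libraries and SPF 2.

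With the Gata4 level in the model, the intervals of Slc46a1 and Slc23a1 narrowed. No call was made among the uptake genes (0 of 15677 genes, 0%, with 763 at an unadjusted p under 0.05). Slc46a1 then had a log2 difference of -0.21 (-1.26 to 0.84; edgeR adjusted p = 0.966) and Slc23a1 of 0.25 (-0.65 to 1.16; edgeR adjusted p = 0.956). Cubn had 0.49 (-0.64 to 1.63; edgeR adjusted p = 0.948), and 1.24 without SPF 2. Leaving out VSG 2, SPF 2 and SPF 4 gave 4 VSG and 3 SPF libraries, in which 0 of 15911 genes (0%) were called and 1107 (6.96%) had an unadjusted p under 0.05. There Slc23a1 was at 4.65 to 9.32 CPM in VSG and 4.21 to 4.37 CPM in SPF, so all 4 VSG libraries were above all 3 SPF libraries. Its log2 difference was 0.76 (0.17 to 1.35; edgeR unadjusted p = 0.0176, adjusted p = 0.640), and 4.36% of all genes tested had all 4 VSG above all 3 SPF libraries. Gata4 was also at 0.85 (-0.13 to 1.82) in this comparison, and its part in the Slc23a1 difference was not tested. Cubn had 0.61 (-0.042 to 1.26; edgeR adjusted p = 0.725) with groups that overlapped. Slc46a1 had 0.34 (-0.48 to 1.16), Amn 0.096, Tcn2 0.074 and Slc19a1 -0.20, all with edgeR adjusted p of at least 0.844.

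**Figure D2:**
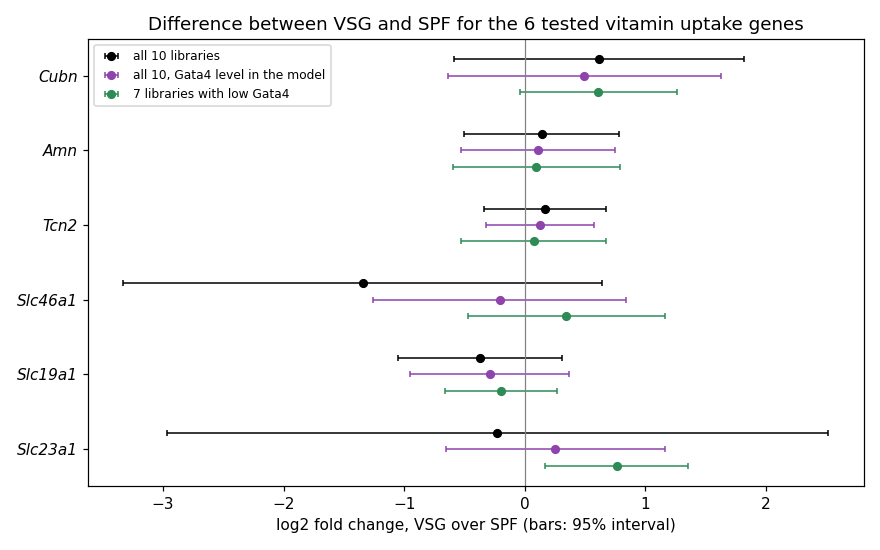
Log2 fold change, VSG over SPF, with 95% intervals, for the 6 tested uptake genes: all 10 libraries (black), all 10 with the Gata4 level in the model (purple) and the 7 libraries with low Gata4 (green). Slc23a1 in green, 0.76, is the one interval lying wholly on one side of 0, and the widest intervals are those of Slc46a1 and Slc23a1 in black.

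Against the Gata4 level the uptake genes parted. Slc23a1 and Slc46a1 rose with Gata4, and the cobalamin genes Cubn, Amn and Tcn2 had slopes below 0 that did not pass the test. In edgeR, 2 of 6 tested uptake genes were called, both rising, where 4.28% of 15677 genes were called rising and 3.22% falling (7.5% in all). Slc23a1 was at 32.8 to 153 CPM in the 3 libraries with high Gata4 and 4.21 to 9.32 CPM in the other 7. Its log2 level went up by 0.81 ± 0.081 (SE; 0.63 to 0.99) per doubling of Gata4, with an edgeR adjusted p of 0.00024. Slc46a1 was at 63.0 to 313 CPM in the 3, against 11.0 to 27.0 CPM in the 7, with a slope of 0.51 ± 0.088 (SE; 0.31 to 0.70; edgeR adjusted p = 0.00551). Without SPF 4 the Slc46a1 slope was 0.34. Slc19a3 was at 1.16 to 11.8 CPM in the 3, against 0.0650 to 0.608 CPM in the 7, and in the fit without the filter had a slope of 0.84 (0.57 to 1.12; edgeR adjusted p = 0.00199). All 3 high-Gata4 libraries lay above the other 7 for Slc23a1 and Slc46a1, 2 of the 6 tested uptake genes, as for 6.07% of all genes tested. They did so for Slc19a3 too, but that gene is below the filter and has no place in this share. They lay below the other 7 for 0 of the 6 tested uptake genes and for 5.65% of all genes tested. The uptake genes were chosen with earlier results of these data known, so these shares stand side by side as a description only.

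The order within the 3 libraries differed by gene. Slc46a1 and Slc19a3 were highest in SPF 4, the library with Pdx1 and the most Onecut2, while Slc23a1 was lowest of the 3 there. Lct, the lactase gene, was at 1451 CPM in SPF 4, against 2065 in VSG 2 and 2643 in SPF 2. For Cubn the 3 libraries spanned 94.5 to 1119 CPM and the other 7 spanned 682 to 1761 CPM, with a slope of -0.17 ± 0.11 (SE; edgeR adjusted p = 0.466). SPF 2 held 1119 CPM of Cubn beside 109 CPM of Gata4. Without SPF 2 the Cubn slope was -0.41 and passed the test (edgeR adjusted p = 0.018), and without SPF 4 it was -0.072 (edgeR adjusted p = 0.838). Amn had a slope of -0.054 (-0.19 to 0.079; edgeR adjusted p = 0.705), Tcn2 of -0.076 (-0.17 to 0.016; edgeR adjusted p = 0.369) and Slc19a1 of 0.077 (-0.048 to 0.20; edgeR adjusted p = 0.529). All of these are slopes over 2 separate clusters of Gata4 level, with no library between 6.28 and 109 CPM. Within the 7 low-Gata4 libraries 0 of 15910 genes were called, 180 having an unadjusted p under 0.05. There Slc23a1 had a slope of 0.45 (0.0067 to 0.89; edgeR adjusted p = 1.00) and Slc46a1 of -0.24 (-0.98 to 0.50; edgeR adjusted p = 1.00).

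**Figure D3:**
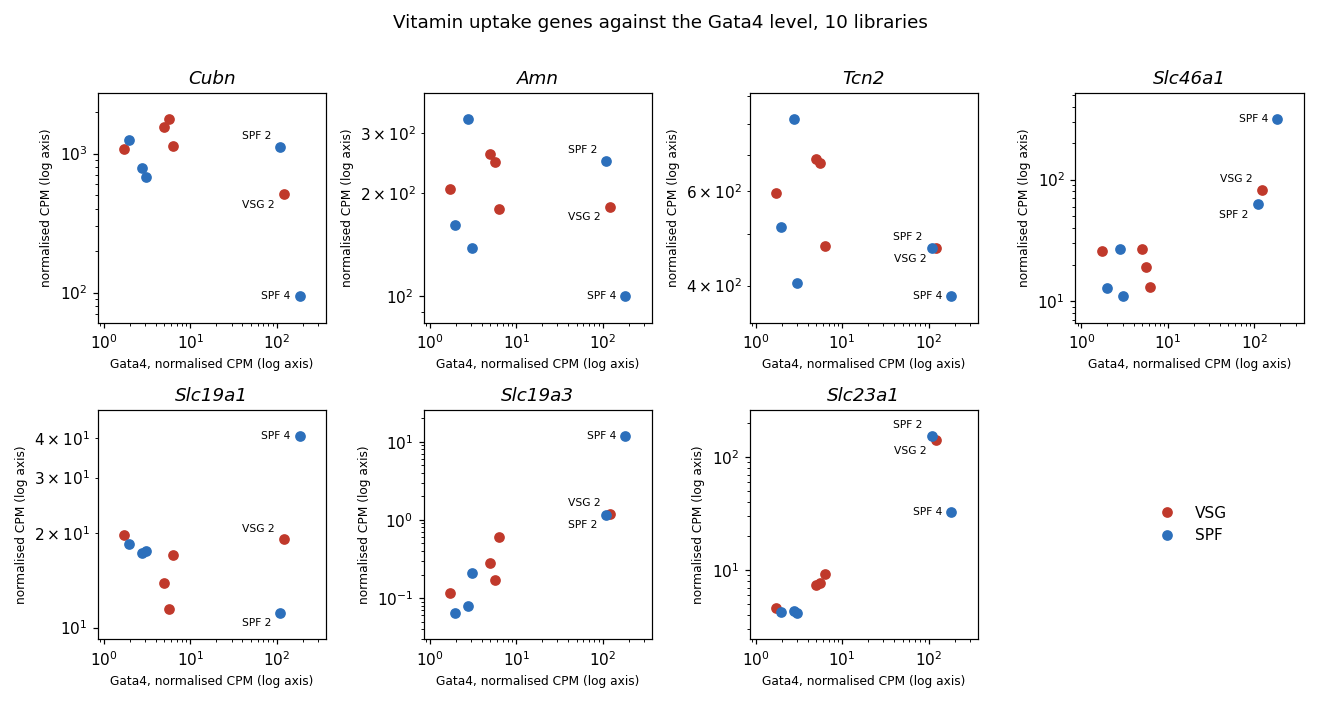
Each uptake gene against Gata4 in the 10 libraries (normalised CPM, both axes log; VSG red, SPF blue), with the 3 high-Gata4 libraries labelled. Slc46a1, Slc19a3 and Slc23a1 stand higher in all 3, whereas Cubn is at 1119 CPM in SPF 2 and 94.5 CPM in SPF 4.

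The other genes of these vitamin pathways were read from lists of cobalamin, folate, thiamine, ascorbate and other water-soluble vitamin genes, of which 51 besides the uptake genes were tested. In VSG against SPF 0 of the 51 were called by edgeR, with 0 at an unadjusted p under 0.05, 29 having fold changes above 0 and 22 below. Their median log2 fold change was 0.028, against -0.045 over all genes tested. Of 14 cobalamin genes 8 were above 0 and 6 below, with the lysosomal cobalamin exporter Lmbrd1 at 113 CPM in VSG and 98.2 CPM in SPF (log2 0.20 ± 0.12, SE). The transcobalamin receptor Cd320 had -0.35 ± 0.22 and Mmadhc, a cobalamin trafficking protein, 0.14 ± 0.13. Of 17 folate genes 6 were above 0 and 11 below, with a median of -0.12. Ggh, which trims the glutamate tail of folates, had -0.39 ± 0.24 and Shmt1, a serine hydroxymethyltransferase, -0.25 ± 0.19. Of 5 thiamine genes 4 were above 0, with Slc44a4, a transporter of thiamine pyrophosphate, at 582 CPM in VSG and 395 CPM in SPF (0.56 ± 0.52). The thiamine triphosphatase Thtpa had -0.29 ± 0.15. The widely expressed ascorbate transporter Slc23a2 averaged 52.4 CPM in VSG and 82.5 CPM in SPF (-0.65 ± 0.46), a difference that was -0.0015 without SPF 4. Of 14 other vitamin genes 11 were above 0 and 3 below, among them the riboflavin kinase Rfk (0.41 ± 0.24) and the pyridoxal kinase Pdxk (-0.51 ± 0.24). All of these named genes had an edgeR adjusted p of 0.977 or higher in VSG against SPF.

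With Gata4, 3 of the 51 rose and 3 fell at an edgeR adjusted p under 0.05, beside 4.28% of all genes rising and 3.22% falling, and the median slope was -0.019, against -0.0015 over all genes. Slc23a2 rose (0.24 ± 0.052, SE, per doubling; edgeR adjusted p = 0.0166), with 80.6 to 199.9 CPM in the 3 high-Gata4 libraries and 27.6 to 58.9 CPM in the 7. Pdxk rose by 0.13 ± 0.027 (edgeR adjusted p = 0.0155), at 89.3 to 162 CPM in the 3 and 54.0 to 79.6 CPM in the 7. On the falling side were a thiamine pyrophosphate transporter, a riboflavin transporter and an exporter. Slc44a4 had a slope of -0.35 ± 0.047 (edgeR adjusted p = 0.00124), at 91.4 to 209 CPM in the 3 and 413 to 797 CPM in the 7. The gene listed as 2310046K01Rik, an older symbol of the riboflavin transporter Slc52a3, had -0.29 ± 0.060 (edgeR adjusted p = 0.0156), at 38.7 to 167 CPM in the 3 and 209 to 448 CPM in the 7. Abcg2, an apical exporter whose substrates include folates, had -0.22 ± 0.033 (edgeR adjusted p = 0.00229), at 141 to 180 CPM in the 3 and 287 to 447 CPM in the 7. Without SPF 4 the calls of Slc23a2 (0.15; edgeR adjusted p = 0.128), Pdxk (0.087; edgeR adjusted p = 0.177) and 2310046K01Rik (-0.22; edgeR adjusted p = 0.0622) were lost, and without SPF 1 that of Pdxk (0.13; edgeR adjusted p = 0.0509).

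**Figure D4:**
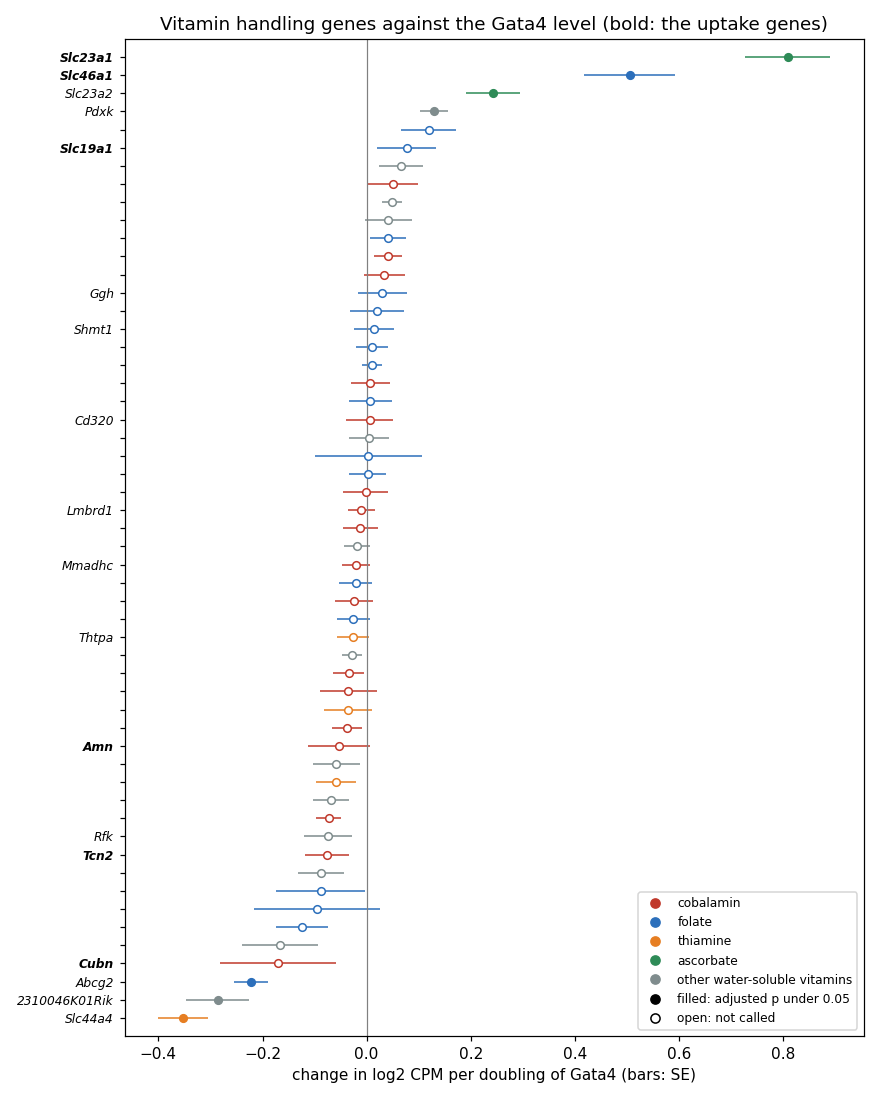
Change in log2 CPM per doubling of Gata4, with SE, for 54 of the 57 tested vitamin genes, coloured by list, filled where the edgeR adjusted p is under 0.05 with names only for genes described in the text and the uptake genes in bold. Slc23a1 (0.81) and Slc46a1 (0.51) lie farthest right, and Slc44a4 (-0.35) farthest left.

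How the genes varied together was examined within the 7 low-Gata4 libraries, since a pooled correlation would follow the 2 clusters. Over 28 pairs of the 7 uptake genes and Gata4, 1 pair passed the adjusted threshold by Pearson r, and that pair did not pass by Spearman rho. Amn and Tcn2 had Pearson r = 0.976 (exact two-sided permutation p = 0.00139 over 5040 pairings, adjusted p = 0.0389) and Spearman rho = 0.964 (exact permutation p = 0.00278, adjusted p = 0.0778). Without SPF 3 and SPF 5, the libraries farthest from the median of Amn, r was 0.930 over 5 libraries. The share of all gene pairs that run this close was not computed, so the pair is given as a description. Of the genes nearest to Tcn2 over the 10 libraries, 2200002D01Rik had r = 0.978 and Lsm10 r = 0.971 with it in these 7. Of those nearest to Amn, Cndp2 had r = 0.966 and Atp9a r = 0.928. The Amn reads per Tcn2 read lay between 0.346 and 0.389 in all 5 VSG libraries and between 0.262 and 0.529 in the 5 SPF libraries. Slc46a1 had r = 0.869 with Amn and r = 0.887 with Tcn2 (exact permutation p = 0.0181 and 0.0131, adjusted p = 0.101 for both). Cubn and its partner Amn had r = 0.261 (exact permutation p = 0.563, adjusted p = 0.853), which became -0.434 without SPF 5 and VSG 4. Slc23a1 and Gata4 had r = 0.906 (exact permutation p = 0.0127, adjusted p = 0.101) but rho = 0.679 (exact permutation p = 0.109). The summed epithelial markers were highest in SPF 3 (22830 CPM) and lowest in SPF 5 (11285 CPM), as were Amn and Tcn2, while the smooth muscle sum was 256 CPM in SPF 3 and 3497 CPM in SPF 5. Their part in the pairing of Amn with Tcn2 was not tested. Within the 4 VSG and 3 SPF libraries taken apart, too few remain for a correlation.

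**Figure D5:**
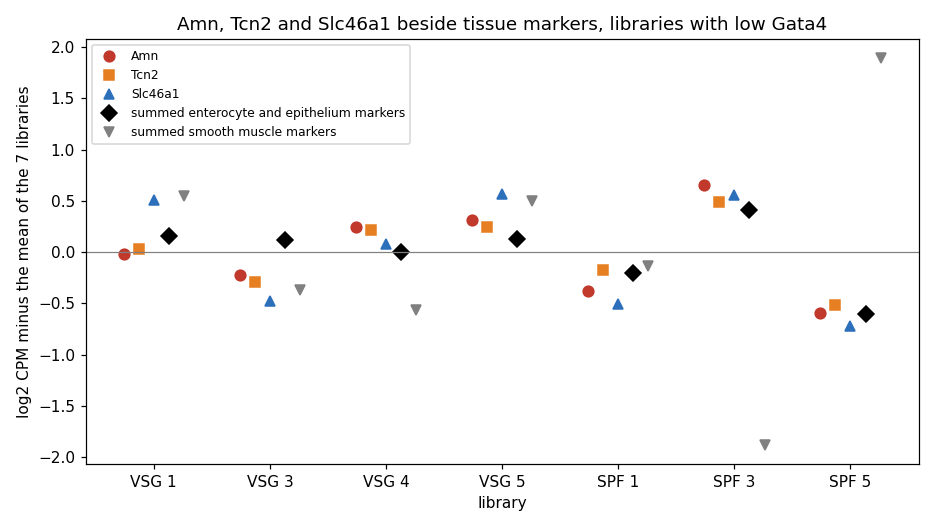
Log2 CPM of Amn, Tcn2 and Slc46a1, and of the summed epithelial and smooth muscle markers, each minus its mean over the 7 low-Gata4 libraries, VSG left and SPF right. Amn, Tcn2 and the epithelial sum are highest in SPF 3 and lowest in SPF 5, where the smooth muscle sum runs the other way, 256 and 3497 CPM.

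The genes whose log2 CPM followed each uptake gene most closely over the 10 libraries, among 11007 candidates with a mean of at least 5 CPM, are given as a description. All genes share the differences of these libraries in depth and tissue makeup, and the 2 Gata4 clusters. Cubn was nearest to Bend7 (r = 0.982) and Ankrd27 (r = 0.978), Amn to Cndp2 (r = 0.981) and Atp9a (r = 0.948), and Tcn2 to 2200002D01Rik (r = 0.978) and Lsm10 (r = 0.976). Slc46a1 was nearest to Mosc2 (r = 0.989) and 5730494N06Rik (r = 0.980), Slc19a1 to Pla2g7 (r = 0.927) and Fnip2 (r = 0.897), and Slc23a1 to Slc36a1 (r = 0.984) and Gpr39 (r = 0.972). Within the 7 low-Gata4 libraries, in the same order, r was 0.911 and 0.857 for Cubn and 0.923 and 0.794 for Slc46a1. It was 0.803 and 0.674 for Slc19a1, and 0.618 and 0.836 for Slc23a1.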

How the data were processed

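RNA of 10 ileum libraries was read as 50-base single-end reads from Illumina TruSeq RNA libraries, per the labels' protocols. The authors deposited estimated counts per gene, 61.2% of them whole numbers, and a second file of log2 values that equal the log2 count on a per-library scale minus the SPF median of the gene. Those log2 values served as an alternative only. Per the submitters' processing notes, DESeq and the build mm9 were used. The aligner, the handling of fractional reads and strand use are not given in the sources used here. Exon models, overlaps and promoters came from GRCm38, matched by symbol or identifier, and no mm9 coordinate is printed.

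Estimated counts were rounded and fitted in edgeR 4.0.16 (R 4.3.3) with filterByExpr, TMM factors, quasi-likelihood F tests and Benjamini-Hochberg adjustment over all genes tested. The Gata4 slope used log2 CPM of Gata4 (prior count 2) with surgery in the model. Intervals are at the 95% level, with SE as the absolute fold change over the root of F. The common coefficient of variation was 0.355. On simulated data 26% of 2-fold and 82% of 4-fold VSG changes were recovered (15678 genes, 110 calls, 2 false), and 60% of slopes of 0.25 and 95% of slopes of 0.5 (166 calls, 11 false). These rates are over all genes and are not those of single uptake genes. The SE of the VSG difference was 1.25 for Slc23a1 and 0.90 for Slc46a1, and recovery at such a spread was not tested. Alternatives were other scalings and filters, DESeq2 1.42.0, limma-voom (limma 3.58.1), a replicate block, each library left out, and the 3 high-Gata4 libraries left out.

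The members and lists were chosen with earlier results of these data known. Named besides the members and Gata4 are, per list, up to 3 genes of lowest p for VSG against SPF and up to 3 called genes of largest Gata4 slope, at a mean of at least 1 CPM, and 2 nearest genes per member. Some genes that this rule names are not reported here, though list counts include them. Lct, Adh6a, Slc40a1, Cybrd1, Pdx1, Onecut2, Col18a1, Paip2 and Gm13270 were named after their values were seen. Of 65 listed symbols 63 were matched, and older symbols stood in for Slc52a2 and Slc52a3. Below the filter were Gif, Lrp2, Folh1, Slc19a3, Gulo and Slc22a13. The kidney tubule markers summed to 0.349 to 11.7 CPM in VSG and 0.259 to 1.54 CPM in SPF, the pancreas acinar markers to at most 0.313 CPM, and the B cell markers to 15.2 to 168 CPM in VSG and 8.21 to 221 CPM in SPF. Same-numbered libraries deviated from their group means with correlations of -0.319 to 0.182, so the numbers were not taken as pairs. Libraries correlated at 0.912 to 0.985 and none was a copy of another.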

Additional observations from a re-analysis of the deposited data

Results flagged for a closer look

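In 7 of 16 groups of 5 libraries, 1 library lay far from the other 4 (its gap to the nearest library exceeded Dixon's critical share of the range). Chance gives about 1 in 20 for independent groups of normally spread values. The groups here share libraries and include Gata4, whose level marked VSG 2, SPF 2 and SPF 4. The 7 are thus a description and are not set against that rate. Within VSG, library 2 was apart for Slc46a1 (82.3 CPM, next 27.0), for Slc23a1 (141 CPM, next 9.32) and for Gata4 (121 CPM, next 6.28). Within SPF, library 4 was apart for Slc46a1 (313 CPM, next 63.0), for Slc19a1 (40.6 CPM, next 18.5) and for Slc19a3 (11.8 CPM, next 1.16). SPF 2 was apart for Slc23a1 (153 CPM, next 32.8). VSG 2, SPF 2 and SPF 4 are the 3 libraries with high Gata4.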

How the results depend on the processing

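For VSG against SPF, 0 uptake genes were called under any alternative run, and genes called were 0 except 11 in DESeq2. Signs were less stable. Slc23a1 (-0.23) was 0.25 with the Gata4 covariate, 0.046 in limma-voom and 0.76 without VSG 2, SPF 2 and SPF 4, where Slc46a1 was 0.34 and Slc23a2 0.084. Leaving out 1 library at a time gave -0.019 to 0.42 for Amn, -0.53 to 0.017 for Slc19a1, -2.46 to 1.58 for Slc23a1 and -2.00 to 0.26 for Slc46a1, with Cubn at 0.35 to 0.86 and Tcn2 at 0.080 to 0.40. At a given Gata4 level the same gave -0.028 to 0.41 for Amn, -0.45 to 0.057 for Slc19a1, -0.0076 to 0.78 for Slc23a1 and -0.52 to 0.21 for Slc46a1, with Cubn at 0.32 to 1.24 and Tcn2 at 0.0087 to 0.34. Library totals alone as scaling moved the median of all genes to -0.11, against -0.045 with TMM. For the Gata4 slope, genes called were 1176, with 1785 in DESeq2, 0 within the 7 low-Gata4 libraries, and 538 (without SPF 4) to 1332 (without SPF 3) on leaving out 1 library, with 2 to 3 uptake genes called. The third was Cubn without SPF 2 and Slc19a3 elsewhere, which then passed the filter. Slc19a3 had 31, 36 and 211 counts in VSG 2, SPF 2 and SPF 4. It failed the filter when VSG 2, VSG 3, SPF 2 or SPF 4 was left out. Its passing thus leaned on the libraries with high Gata4, so its calls there are a description only. Within the 7 libraries 0 uptake genes were called, and slopes turned sign for Amn (0.090), Cubn (0.073), Slc19a1 (-0.25), Slc46a1 (-0.24) and Slc23a2 (-0.19). Leaving out 1 library gave -0.046 to 0.12 for Slc19a1. With the replicate number as a block, though the numbers do not pair libraries, VSG against SPF called 0 genes, the Gata4 slope 9 genes and 0 uptake genes, and Slc46a1 at a given Gata4 level was 0.041. The cause of these shifts was not tested. With 5 libraries a group and this spread, what depth limits was not tested; Slc19a3 had 2 to 9 counts in the 7 libraries.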
